A study of Mus musculus with 13 samples.

Results

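The interferon-induced GTPases examined here are 10 mouse genes, 4 guanylate-binding proteins (*Gbp2*, *Gbp3*, *Gbp5* and *Gbp7*) and 6 immunity-related GTPases (*Irgm1*, *Irgm2*, *Igtp*, *Iigp1*, *Ifi47* and *Tgtp2*). They were chosen by symbol from the 47643 genes of the count table, and each symbol matched 1 row. All 10 were among the 17285 genes tested. In every sham-vehicle mouse 9 of them exceeded the filter level of 0.3705 CPM (counts scaled to the size of the library), while *Tgtp2* exceeded it in none and therefore entered the test only through its level in LPS-treated mice.

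RNA was sequenced from the isolated neurovasculature of 13 male CD1 mice aged 8 to 10 weeks. The 4 sham-vehicle mice received vehicle and no LPS. The 5 LPS-vehicle mice received intraperitoneal lipopolysaccharide of *Salmonella enterica* Typhimurium at 3 mg/kg at 0, 6 and 24 h, with vehicle. The 4 LPS-CPD-4645 mice received the same LPS and, 30 min after each dose, 10 mg/kg subcutaneous CPD-4645 (timing by the labels), an inhibitor of monoacylglycerol lipase, the enzyme that breaks down the endocannabinoid 2-arachidonoylglycerol. The vehicle held DMSO, Cremophor and saline. Tissue was collected at 28 h, 4 h after the last LPS dose. No group received CPD-4645 without LPS, so the compound was compared only in inflamed vessels. Brains were not perfused, so blood cells inside the vessels are part of the material.

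Interferon-gamma acts through its receptor and the kinases JAK1 and JAK2, and type I interferons act through theirs, JAK1 and TYK2. Gamma-activated sequences (GAS) are the DNA elements of the interferon-gamma route, and interferon-stimulated response elements (ISRE) are those of the type I route and of the transcription factor IRF1. The guanylate-binding proteins and immunity-related GTPases are classical targets of both routes. They bind and hydrolyse GTP, assemble on the membranes of vacuoles and bacteria inside cells, and help to open them. The Irgm proteins and Igtp stay on the cell's own membranes and hold the other immunity-related GTPases inactive there, whereas Iigp1, Ifi47 and Tgtp2 belong to the effectors that load onto pathogen vacuoles. LPS is known to induce these genes through interferons made by responding cells.

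Promoter windows of RefSeq (build GRCm38.p6, 250 bases before to 50 bases after a start site) were found for 9 of the 10 genes, in 10 windows, and *Iigp1* had no entry. The letters TTCNNNGAA for GAS, and GAAA followed after any 2 bases by another GAAA for the ISRE core, were searched on both strands, and matches of either could overlap. The GAS letters occurred in the windows of 5 genes (*Gbp5*, *Gbp7*, *Igtp*, *Irgm2* and *Tgtp2*), against 8.298% of all 32851 promoter windows. The ISRE core occurred in 8 genes, all those with a window other than *Ifi47*, against 3.443% of windows. Both patterns stood in the same window for 5 genes, against 0.454% of windows. The stretches below run from 110 to 11 bases before the start site, 5′ to 3′ on the strand of the gene, with matched letters in capitals. The first 3 are shown because a GAS and an ISRE core follow each other, the next 2 because 3 GAAA units (or TTTC on the other strand) follow each other, and *Gbp2* because it holds a single ISRE core.
Tgtp2 (chr11:49064223-49064322, minus strand): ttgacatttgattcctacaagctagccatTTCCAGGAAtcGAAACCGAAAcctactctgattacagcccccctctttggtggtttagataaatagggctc
Igtp (chr11:58199446-58199545, plus strand): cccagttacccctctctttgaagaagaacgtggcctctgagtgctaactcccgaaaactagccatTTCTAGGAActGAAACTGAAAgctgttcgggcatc
Irgm2 (chr11:58214867-58214966, plus strand): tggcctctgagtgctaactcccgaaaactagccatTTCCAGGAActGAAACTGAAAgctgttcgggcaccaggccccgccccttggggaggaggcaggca
Irgm1 (chr11:48871431-48871530, minus strand): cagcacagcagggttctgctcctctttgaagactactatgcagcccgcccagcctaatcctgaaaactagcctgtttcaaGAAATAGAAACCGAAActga
Gbp3 (chr3:142559934-142560033, plus strand): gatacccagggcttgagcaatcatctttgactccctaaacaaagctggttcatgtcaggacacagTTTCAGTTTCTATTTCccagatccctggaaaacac
Gbp2 (chr3:142620553-142620652, plus strand): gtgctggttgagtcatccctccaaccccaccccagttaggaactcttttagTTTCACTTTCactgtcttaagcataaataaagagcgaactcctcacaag

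In *Tgtp2*, *Igtp* and *Irgm2* the ISRE core began 2 bases after the end of the GAS. This arrangement of letters was searched for after these windows had been read, and it occurred in 5 of the 32851 windows (0.015%), those of *Igtp*, *Irgm2*, *Tgtp2*, the near-copy *Tgtp1* and *Gm12185*, another immunity-related GTPase. The *Igtp* and *Irgm2* stretches shared a run of 38 identical bases, and *Irgm2* and *Tgtp2* a run of 17. A run of 3 GAAA units with any 2 bases between neighbours, which contains 2 overlapping ISRE cores and was also searched afterwards, occurred in 38 windows (0.116%) of 36 genes, among them *Gbp3* and *Irgm1*. A match describes letters only. The start sites are RefSeq's, and for *Irgm1*, *Irgm2*, *Gbp2*, *Gbp3* and *Gbp5* they lie inside the longer gene that GENCODE M21 draws.

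The 4 guanylate-binding protein genes lie in one cluster on chromosome 3 of GRCm38, from *Gbp5* (142493978 to 142522344) through *Gbp7* (142530342 to 142550149) and *Gbp3* (142560026 to 142573209) to *Gbp2* (142620602 to 142638008). Chromosome 11 carries *Irgm1* (48861968 to 48871683), *Tgtp2* (49057194 to 49064206) and *Ifi47* (49076587 to 49096974) in one cluster, and *Igtp* (58199556 to 58207591) and *Irgm2* (58199618 to 58222782) in another. *Iigp1* lies on chromosome 18 (60376027 to 60392634). Several members cannot be counted free of a neighbour or copy. Of all 75-base windows of the *Tgtp2* transcripts, 81.35% also occur in another gene, almost all of them in *Tgtp1*, so its uniquely placed reads cover a small part of the gene. The share was 11.28% for *Gbp7* (mostly *Gm43802*), 7.8% for *Igtp* and 4.78% for *Irgm2*, which overlap each other on the same strand, 2.82% for *Ifi47*, which overlaps *Olfr56* on the same strand and *Gm12188* on the other, 2.06% for *Gbp3*, and below 1% for the rest.

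Library totals ran from 7813559 to 55133373 counts, with a median of 26989885. In the 22 pairs of mice within groups, chi-square per gene was 9.847 to 61.46, where counting error by itself gives about 1, so mice differed by more than counting error on average. The marker genes did not show vessels alone. Summed over 6 markers each, neuron genes reached 7443 to 10050 CPM and oligodendrocyte genes 3158 to 6387 CPM in single mice, whereas endothelial genes reached 311 to 818 CPM and pericyte and smooth muscle genes 130 to 248 CPM. A change of a transcript in such a mixture can come from fewer or more cells of a type or from a different amount of RNA per cell, and these cannot be told apart.

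The GTPase transcripts rose after LPS. Between LPS-vehicle and sham-vehicle mice, 9 of the 9 genes that exceeded the filter level in sham-vehicle mice passed the threshold upward, that is a p adjusted by Benjamini-Hochberg no higher than 0.05 and at least a 2-fold change (edgeR quasi-likelihood test). *Tgtp2* passed it as well, but it was tested only through its level in LPS-treated mice, and its groups overlapped. Of all genes tested, 4.68% passed it upward and 0.995% downward. The log2 fold changes ran from 1.66 (*Gbp7*) to 3.37 (*Gbp5*), with a median of 2.68 over the 9 and 2.72 with *Tgtp2*, beside a median of -0.001 over all genes. The LPS-vehicle mice all lay above all sham-vehicle mice for 9 of the 10 genes, a separation seen for 9.68% of all genes, and *Tgtp2* was the exception. The median change was 2.46 for the 4 guanylate-binding proteins, 2.76 for the 3 regulatory genes (*Irgm1*, *Irgm2*, *Igtp*) and 2.86 for the effectors *Iigp1* and *Ifi47* (3.00 with *Tgtp2*), ranges that overlap.

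**Figure D1:**
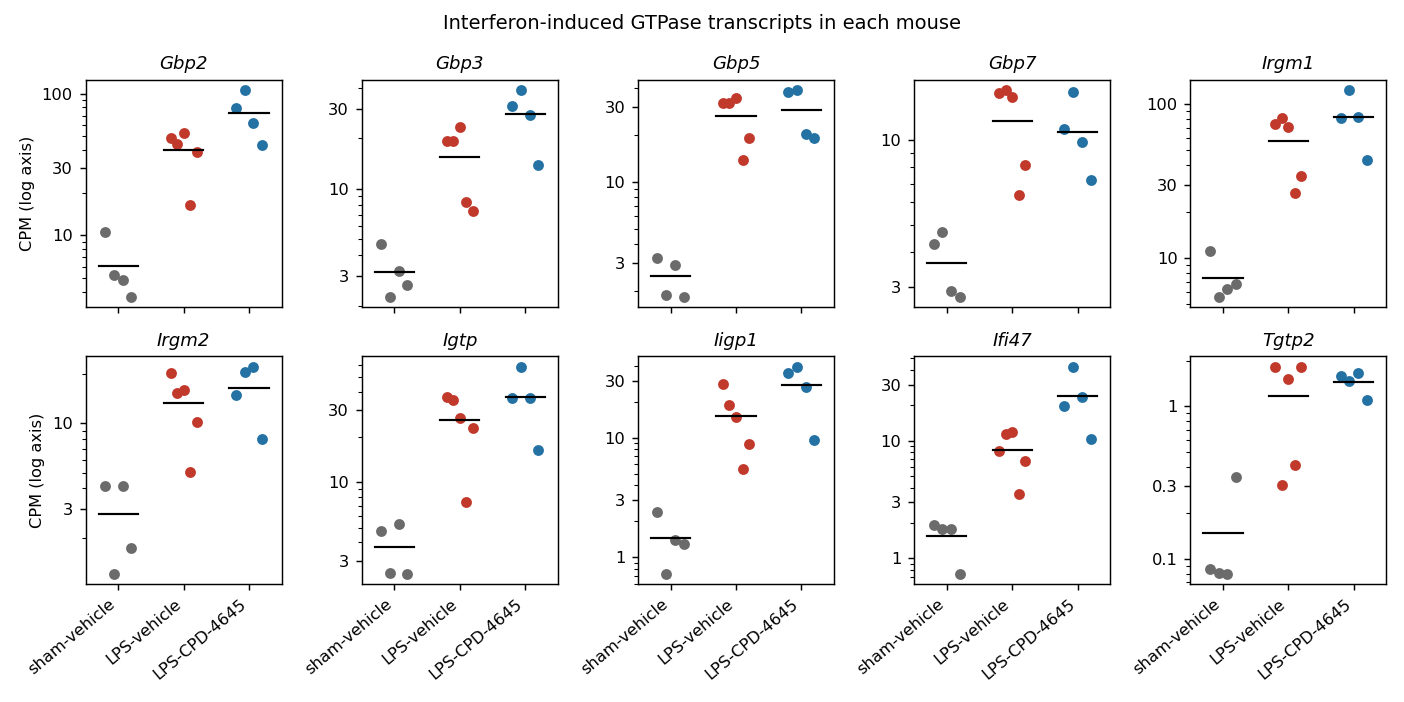
CPM of each GTPase transcript (log axis, a scale of its own in each panel) in every sham-vehicle (n = 4), LPS-vehicle (n = 5) and LPS-CPD-4645 (n = 4) mouse, in order of mouse number from left to right, with lines at the group means. LPS-treated mice lie above sham-vehicle mice in every panel except that of *Tgtp2*, and the LPS-vehicle and LPS-CPD-4645 mice overlap in all 10.

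*Gbp5*, whose product promotes assembly of the NLRP3 inflammasome, had the largest fitted rise, though that of *Iigp1* was about equal (3.36, SE 0.49). It stood at 3.25, 1.89, 2.95 and 1.83 CPM in sham-vehicle mice 1 to 4. In LPS-vehicle mice 1 to 5 it reached 31.8, 32.0, 34.3, 13.7 and 19.0 CPM. The lowest LPS-vehicle value was far above the highest sham-vehicle value, and mice 4 and 5 were lower than the other LPS-vehicle mice. The means were 2.48 ± 0.73 CPM (SD, n = 4) and 26.2 ± 9.2 CPM (SD, n = 5), a log2 fold change of 3.37 (SE 0.32, edgeR adjusted p = 5.94e-07).

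*Gbp2*, which coats bacteria and vacuoles and promotes caspase-11 activation, was the most abundant guanylate-binding protein. Its values were 10.5, 5.23, 4.86 and 3.65 CPM in sham-vehicle mice 1 to 4. After LPS they were 48.9, 44.0, 52.3, 16.5 and 38.8 CPM in mice 1 to 5. Sham-vehicle mouse 1 was the highest of its group, and LPS-vehicle mouse 4 stood apart on the low side. The log2 fold change was 2.68 (SE 0.34, edgeR adjusted p = 1.77e-05). *Gbp3* rose from a range of 2.25 to 4.65 CPM to one of 7.39 to 23.4 CPM (log2 fold change 2.23, SE 0.36). *Gbp7* had the smallest rise of the 10, from 2.77 to 4.71 CPM before and 6.35 to 15.1 CPM after LPS (log2 fold change 1.66, SE 0.28, edgeR adjusted p = 0.000334).

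*Irgm1*, the regulator that also acts in autophagy and in the survival of activated lymphocytes and macrophages, gave the highest level of the 10. In sham-vehicle mice 1 to 4 it stood at 11.0, 5.55, 6.29 and 6.72 CPM. The LPS-vehicle mice held 74.2, 81.4, 71.1, 26.3 and 34.3 CPM. They fell into a high set of mice 1 to 3 and a lower pair, mice 4 and 5, and even the lower pair exceeded every sham-vehicle mouse. The log2 fold change was 2.93 (SE 0.35, edgeR adjusted p = 8.92e-06). *Igtp*, a regulator of the endoplasmic reticulum and lipid droplets, went from 2.47 to 5.26 CPM in sham-vehicle mice to 7.39 to 36.6 CPM after LPS (log2 fold change 2.76, SE 0.42). *Irgm2*, a Golgi-bound regulator, went from 1.21 to 4.16 CPM to 5.04 to 20.2 CPM (log2 fold change 2.21, SE 0.41, edgeR adjusted p = 0.000837).

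Among the effectors, *Iigp1* stood at 2.37, 0.724, 1.39 and 1.28 CPM in sham-vehicle mice 1 to 4. After LPS it reached 28.3, 18.7, 14.9, 5.45 and 8.91 CPM in mice 1 to 5. The LPS-vehicle mice differed from one another by 5.19-fold and did not overlap with sham-vehicle mice. The log2 fold change was 3.36 (SE 0.49, edgeR adjusted p = 7.83e-05). *Ifi47* went from 1.94, 1.77, 1.79 and 0.741 CPM in sham-vehicle mice to 8.14, 11.3, 11.97, 3.56 and 6.77 CPM in LPS-vehicle mice. Its groups did not overlap, and the log2 fold change was 2.36 (SE 0.41, edgeR adjusted p = 0.000393).

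*Tgtp2*, the least abundant member, stood at 0.0856, 0.0804, 0.0797 and 0.346 CPM in sham-vehicle mice and at 1.82, 0.305, 1.51, 0.411 and 1.82 CPM in LPS-vehicle mice. LPS-vehicle mouse 2 was below sham-vehicle mouse 4, so the groups overlapped. The fitted log2 fold change was 3.00 (SE 0.67, edgeR adjusted p = 0.00372). With limma-voom, the method of the study, it was 2.47 with an adjusted p of 0.072, which missed the threshold. When the counts of *Tgtp1* and *Tgtp2* were added up, a choice made after the data were seen, the change was 2.25 (SE 0.56, edgeR adjusted p = 0.00832).

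Single mice stood high or low across most of the genes. LPS-vehicle mouse 4 was the lowest of its group for 8 of the 10 genes. Averaged over the 10 genes, it was 1.47 above the sham-vehicle mean on the log2 CPM scale, and the other LPS-vehicle mice were 2.32 to 3.12 above that mean. In the LPS-CPD-4645 group, mouse 2 was highest for 8 genes and mouse 4 lowest for all 10, at 3.76 and 2.36 above the sham-vehicle mean. Leaving out any 1 of the 13 mice kept 10 of 10 genes past the threshold after LPS.

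**Figure D2:**
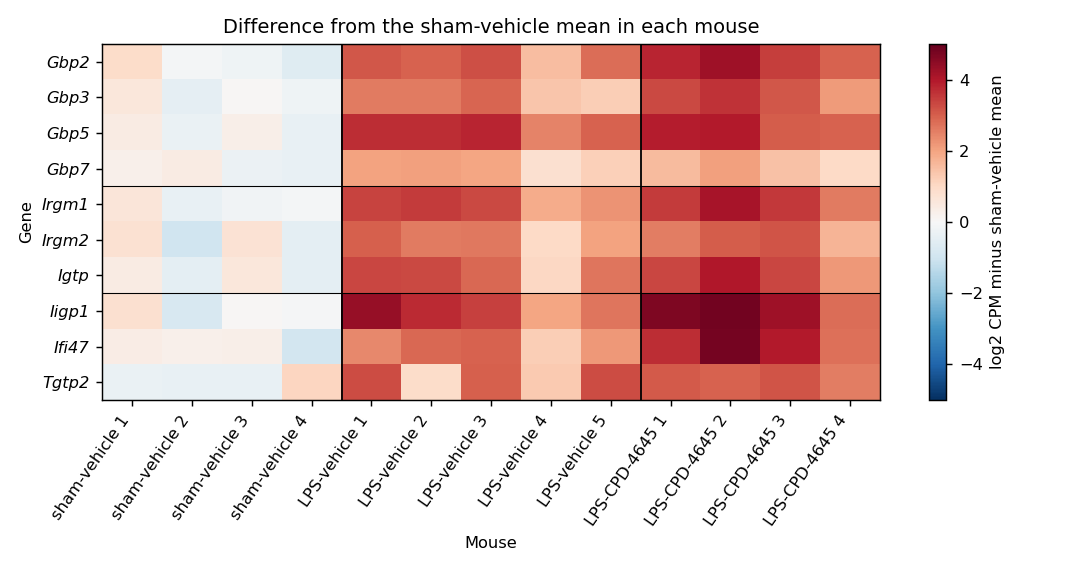
Difference of each mouse (columns) from the sham-vehicle mean in log2 CPM, for each GTPase (rows, with lines between guanylate-binding proteins, regulators and effectors). The column of mouse 4 is paler than the others both in LPS-vehicle mice, with an average of 1.47, and in LPS-CPD-4645 mice, with an average of 2.36.

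None of the GTPase transcripts was called lower with CPD-4645, and 1 was called higher. Compared with LPS-vehicle mice, 0 of 10 genes passed the threshold downward in LPS-CPD-4645 mice, where 4.19% of all genes did, and 1 of 10, *Ifi47*, passed it upward, where 1.7% did. Without the 2-fold minimum, 2 of 10 (*Gbp2* and *Ifi47*) were higher and 0 were lower, against 14.1% and 16.4% of all genes. The fitted change was above 0 for 9 of the 10 genes and for 47.8% of all genes. The members tended to be high or low together in a mouse, so the 9 are not separate observations. The median log2 fold change of the 10 was 0.525, from -0.12 (*Gbp7*) to 1.56 (*Ifi47*), beside -0.023 over all genes. In none of the 10 were the groups free of overlap, a separation upward that 11.1% of all genes showed.

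*Ifi47* held 19.7, 42.5, 23.7 and 10.4 CPM in LPS-CPD-4645 mice 1 to 4. Mouse 4 lay below the highest LPS-vehicle mouse, at 11.97 CPM, and the other LPS-CPD-4645 mice lay above all LPS-vehicle mice. The means were 8.35 ± 3.44 CPM (SD, n = 5) and 24.0 ± 13.5 CPM (SD, n = 4), a log2 fold change of 1.56 (SE 0.35, 95% interval 0.82 to 2.29, edgeR adjusted p = 0.00295). The value without LPS-CPD-4645 mouse 2, the highest, was 1.12 with an edgeR adjusted p of 0.0242.

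*Gbp2* reached 79.7, 106, 61.7 and 43.6 CPM in LPS-CPD-4645 mice 1 to 4. Only mouse 4 fell within the range of the LPS-vehicle mice. The log2 fold change was 0.87 (SE 0.30, 95% interval 0.24 to 1.50, edgeR adjusted p = 0.0352), below the 2-fold minimum. *Gbp3* came to 31.0, 38.7, 27.3 and 13.85 CPM, again with mouse 4 alone inside the LPS-vehicle range, and a log2 fold change of 0.86 (SE 0.32, edgeR adjusted p = 0.0504). *Iigp1* came to 35.1, 39.3, 26.5 and 9.54 CPM, with mice 3 and 4 inside that range, and a log2 fold change of 0.85 (SE 0.40, edgeR adjusted p = 0.118).

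Calls other than that of *Ifi47* depended on single mice. Without LPS-CPD-4645 mouse 4, which was the lowest of its group for all members, *Gbp2*, *Gbp3* and *Iigp1* also passed the threshold upward. Their log2 fold changes were then 1.07, 1.10 and 1.16. Dropping the lowest mouse raises its group for every member, so this refit favours calls upward. Over all genes, 854 to 1082 were called in either direction in the fits that left out a mouse. *Gbp3* also passed without LPS-vehicle mouse 3, at 1.03, and *Iigp1* without LPS-vehicle mouse 1, at 1.21. No gene passed downward in any of the 13 fits that left out a mouse. Other alternatives went the opposite way. Over the 22 alternatives of processing, which include these fits, the lowest log2 fold changes of *Gbp2*, *Gbp3* and *Iigp1* were 0.626, 0.648 and 0.628. Their highest adjusted p values, each from the test its alternative used, were 0.159, 0.186 and 0.323. The higher level of *Gbp2* called without a minimum fold change therefore did not hold under every alternative.

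The regulators were measured without a call in either direction. *Irgm1* was at 81.6, 124, 82.4 and 43.5 CPM, and the interval of its log2 change ran from -0.11 to 1.18 around 0.53. For *Igtp* the range in LPS-CPD-4645 mice was 16.3 to 58.4 CPM and the log2 interval -0.25 to 1.28, and for *Irgm2* 8.05 to 22.1 CPM and -0.47 to 1.09. *Gbp5* lay at 19.0 to 38.5 CPM, with an interval of -0.41 to 0.71, and *Gbp7* at 7.18 to 14.9 CPM, with an interval of -0.67 to 0.44. For these 5 genes the data do not tell apart a rise and a fall, with log2 bounds of -0.67 at the lowest and 1.28 at the highest.

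*Tgtp2* was at 1.58, 1.47, 1.66 and 1.10 CPM in LPS-CPD-4645 mice, inside the range of LPS-vehicle mice (log2 fold change 0.34, 95% interval -0.80 to 1.48). Its near-copy *Tgtp1* held 0.79, 1.22, 0.756, 0.602 and 1.31 CPM in LPS-vehicle mice and 4.59, 6.47, 3.54 and 1.77 CPM in LPS-CPD-4645 mice, without overlap, a log2 fold change of 2.09 (SE 0.61, 95% interval 0.80 to 3.38, edgeR adjusted p = 0.0155). The intervals of the 2 genes overlap, and the difference between them was not tested. Most of the sequence of these genes is shared, so a read placed in the wrong copy changes each count but not their sum. The sum rose by 1.40 on the log2 scale under CPD-4645 (SE 0.47, edgeR adjusted p = 0.0309) and passed the threshold, from 1.01 to 3.13 CPM in LPS-vehicle mice to 2.87 to 7.94 CPM.

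**Figure D3:**
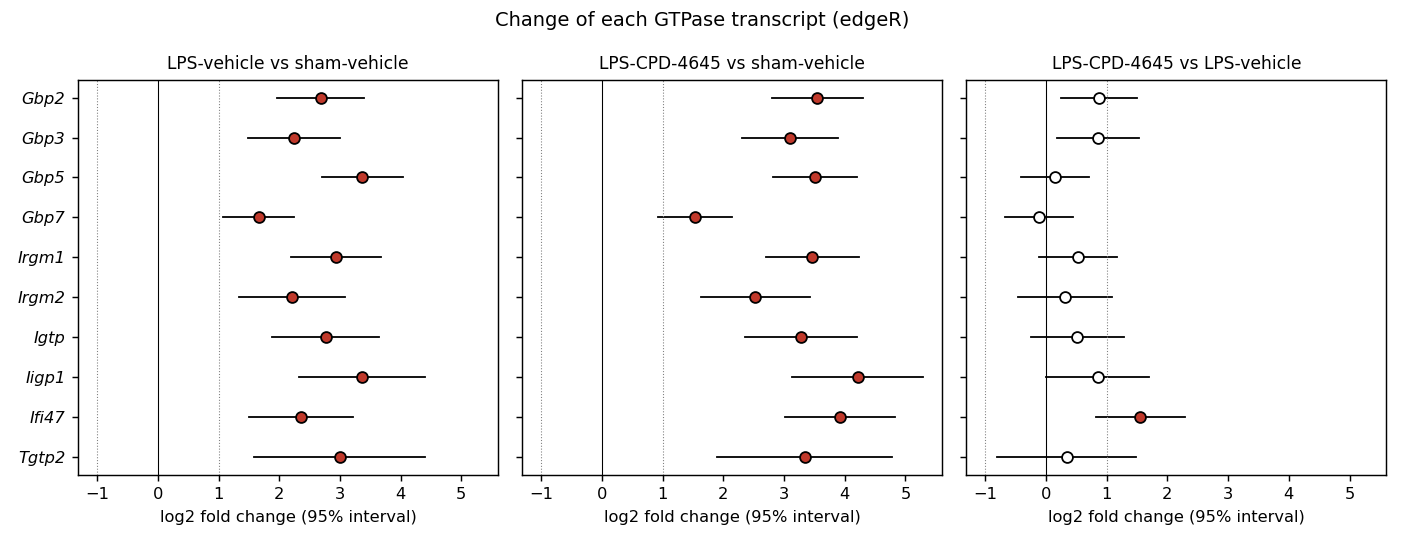
Log2 fold change of each GTPase (points) with its 95% interval (lines) in the 3 comparisons, from edgeR. Filled points passed the threshold, and dotted lines mark a 2-fold change; all 10 points are filled in both comparisons with sham-vehicle mice, and in LPS-CPD-4645 against LPS-vehicle mice the point of *Ifi47* alone is filled, at 1.56.

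Against sham-vehicle mice, the LPS-CPD-4645 mice were higher for 9 of the 9 genes over the filter level in sham-vehicle mice and for *Tgtp2*, where 6.11% of all genes passed the threshold upward, and no LPS-CPD-4645 mouse overlapped with a sham-vehicle mouse for any of the 10, against 18.7% of all genes. The median log2 fold change was 3.47 over the 9 and 3.40 with *Tgtp2*, from 1.54 for *Gbp7* to 4.21 for *Iigp1*. This comparison shares its sham-vehicle mice with the first and its LPS-CPD-4645 mice with the second, so the 3 are not independent. Side by side, *Ifi47* was 2.36 above sham-vehicle mice after LPS alone and 3.92 above them with CPD-4645, *Gbp2* 2.68 and 3.55, *Iigp1* 3.36 and 4.21, *Irgm1* 2.93 and 3.47, *Gbp5* 3.37 and 3.51, and *Gbp7* 1.66 and 1.54 on the log2 scale.

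Levels of different genes were compared per kilobase of exon (RPKM). *Irgm1* ranked first in all 3 groups, at 3.21 ± 1.07, 24.9 ± 11.0 and 35.9 ± 14.2 RPKM (SD; n = 4, 5 and 4) in sham-vehicle, LPS-vehicle and LPS-CPD-4645 mice. *Gbp2* followed at 2.41, 15.9 and 28.9 RPKM, then *Igtp* at 1.85, 12.7 and 18.2 RPKM. Neighbours among these 3 differed by less than the larger of their SDs in each group, except *Gbp2* and *Igtp* in LPS-CPD-4645 mice. *Tgtp2* ranked last throughout, at 0.0526, 0.418 and 0.517 RPKM, although reads it shares with *Tgtp1* are missing from its count. *Ifi47* moved in rank from 5 in sham-vehicle mice to 7 after LPS and 4 with CPD-4645, at 0.831, 4.44 and 12.8 RPKM.

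Of 20 other genes of these GTPase families, 10 had enough counts to be tested. After LPS 4 rose: *Gbp2b*, *Gbp4* and *Gbp9* by 3.43, 2.47 and 1.88 on the log2 scale, and *Gm4951*, an immunity-related GTPase with 0, 0, 2 and 0 counts in sham-vehicle mice and 36, 47, 0, 8 and 13 in LPS-vehicle mice. Because LPS-vehicle mouse 3 held 0 counts of *Gm4951*, its groups overlapped. *Gbp4* lay at 3.41 to 5.71 CPM in sham-vehicle mice and 10.1 to 36.1 CPM in LPS-vehicle mice. With CPD-4645 against LPS alone, *Tgtp1* was the only one that passed the threshold. Against sham-vehicle mice 7 of the 10 were higher with CPD-4645, adding *Gbp6* (4.25), *Tgtp1* (3.77) and *Gm4841* (2.36). Of these 7, *Gbp6*, *Gm4841* and *Gm4951* were below the filter level in every sham-vehicle mouse and were tested only through LPS-treated mice, which favours a call above sham-vehicle mice. *Gbp2b* and *Tgtp1* exceeded that level in 1 of the 4 sham-vehicle mice, so they too owe their place in the test to LPS-treated mice, and *Gbp4* and *Gbp9* exceeded it in all 4. *Irgq*, a more distant relative, was at 55.2 to 74.9 CPM in every mouse, with log2 changes of -0.13 after LPS and 0.07 with CPD-4645 against LPS alone.

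The ligands themselves were hardly seen. *Ifng* had 3 counts in 1 LPS-CPD-4645 mouse and 0 in the other 12 mice, and *Ifnb1* had 1 count in each of 2 mice, 1 sham-vehicle and 1 LPS-CPD-4645. A count of 0 allows up to 3 counts per library, so neither ligand could be compared at this depth. All 4 interferon receptor genes were detected, and none passed the threshold in any comparison. *Ifngr1* was higher after LPS by 0.48 on the log2 scale (SE 0.13, edgeR adjusted p = 0.0166), and *Ifngr2* was lower with CPD-4645 than after LPS alone by a log2 change of -0.48 (SE 0.09, edgeR adjusted p = 0.000798), both below 2-fold. *Ifnar1* and *Ifnar2* differed by at most 0.16 in these 2 comparisons.

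Of the 21 interferon signalling genes listed, 18 were tested. After LPS 9 rose and 0 fell. They were the transcription factors *Stat2* (1.33), *Irf1* (2.05), *Irf7* (3.82), *Irf8* (1.03) and *Irf9* (1.88), the class I transactivator *Nlrc5* (3.69) and the inhibitors *Socs1* (1.46), *Socs3* (3.69) and *Usp18* (2.49), all on the log2 scale. *Nlrc5* exceeded the filter level in 2 of the 4 sham-vehicle mice and was tested through LPS-treated mice, and the other 8 exceeded it in all 4. *Irf1* was at 8.05 to 9.45 CPM in sham-vehicle mice and at 43.8, 53.3, 49.9, 17.5 and 17.9 CPM in LPS-vehicle mice 1 to 5. Mice 4 and 5, which were low for several GTPases, were also low for *Irf1*. Not every factor followed this order, since *Irf7* and *Irf8* were lowest in LPS-vehicle mouse 3, at 14.5 and 7.44 CPM. With CPD-4645 added, 0 of the 18 passed the threshold. Without the 2-fold minimum, *Jak1* was higher (0.20) and *Ifngr2*, *Tyk2* (-0.54) and *Irf2* (-0.48) were lower. *Irf1* differed by 0.22 (SE 0.29) on the log2 scale.

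Other interferon targets did not move as one under CPD-4645. Of 16 listed, 14 rose after LPS, all but *Ido1* and *Ifit2*, although *Cxcl9* exceeded the filter level in 0 and *Mx1* in 1 of the 4 sham-vehicle mice, so both were tested through LPS-treated mice. With CPD-4645 against LPS alone, 4 were higher still, the chemokines *Cxcl9* (1.87) and *Cxcl10* (2.64) and the antiviral genes *Rsad2* (1.84) and *Mx1* (1.27), and *Oasl2*, an antiviral gene, fell by 1.31 on the log2 scale. *Rsad2* was at 3.31 to 9.83 CPM in LPS-vehicle and 14.1 to 31.6 CPM in LPS-CPD-4645 mice, and *Cxcl10* at 4.92 to 117 CPM and 106 to 433 CPM. The separation of groups that *Rsad2* and *Cxcl9* showed was not seen for *Ifi47*. Short of 2-fold, *Cd274*, the gene of the checkpoint ligand PD-L1, was higher by 0.93 (SE 0.31, edgeR adjusted p = 0.0325) and *B2m* was lower by a log2 change of -0.66 (SE 0.17, edgeR adjusted p = 0.00695). The median over the 16 was 0.22, beside 0.525 over the GTPases.

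**Figure D4:**
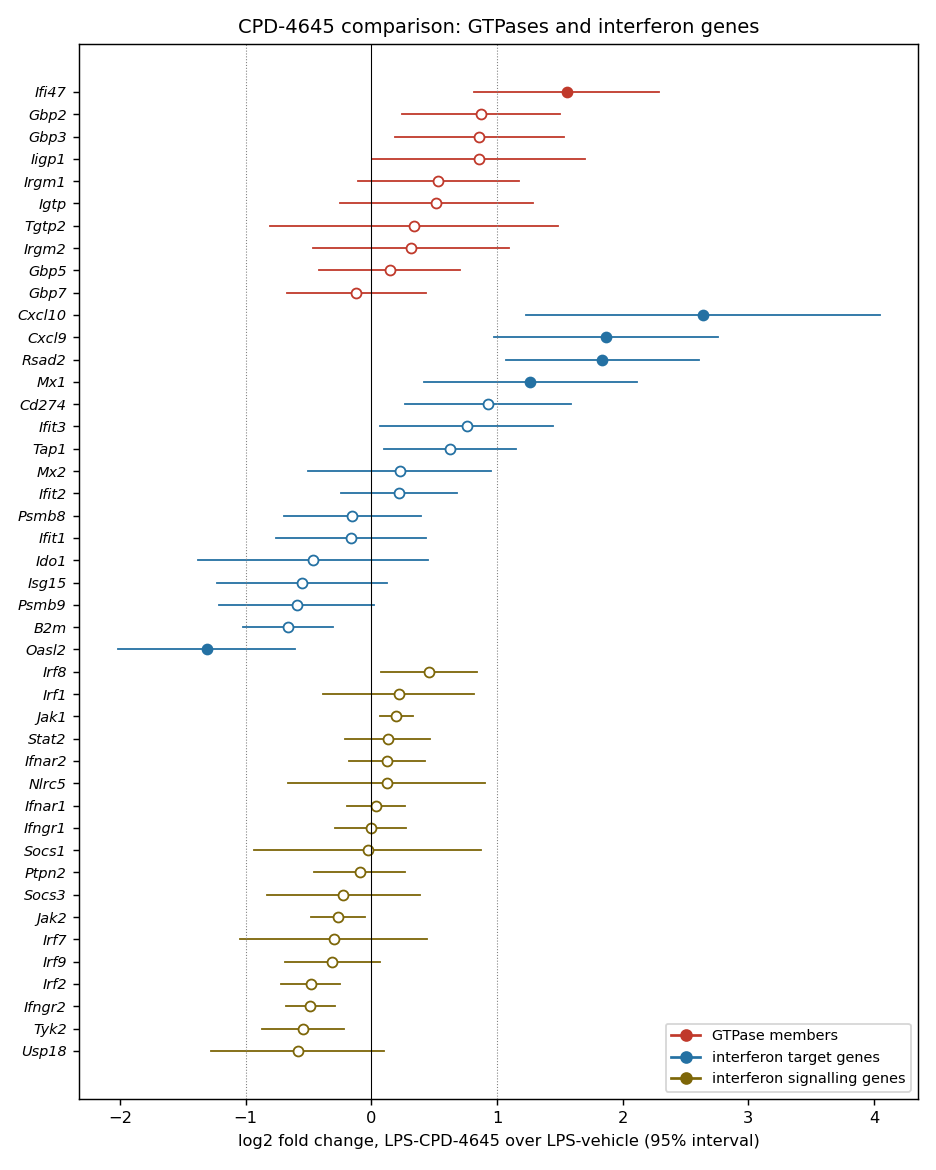
Log2 fold change with CPD-4645 against LPS alone (points, with 95% intervals) for the GTPases (red), 16 interferon targets (blue) and 18 interferon signalling genes (olive), ordered by size within each set. Filled points passed the threshold; they are 1 GTPase (*Ifi47*), 5 targets (4 above 0 and *Oasl2* below) and 0 signalling genes.

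Partner genes of the GTPases were listed as well. Guanylate-binding proteins act upstream of caspase-11 (*Casp4*) and gasdermin D (*Gsdmd*), and both transcripts rose after LPS, by 3.65 and 1.39 on the log2 scale. *Casp4* went from 0.161 to 0.717 CPM in sham-vehicle mice to 3.86 to 8.16 CPM in LPS-vehicle mice and stood at 3.65 to 4.97 CPM with CPD-4645. It exceeded the filter level in 2 of the 4 sham-vehicle mice and was tested through LPS-treated mice. *Aim2* and *Casp1* did not pass the threshold in any comparison. Of 10 genes of the autophagy conjugation machinery, which places these GTPases on vacuole membranes, 0 passed in any comparison, with log2 changes from -0.37 to 0.29 after LPS. With the 2-fold minimum dropped, 2 of them were higher and 1 lower after LPS. With CPD-4645 against LPS alone, 3 were then higher and 2 lower, against 14.1% and 16.4% of all genes. Those log2 changes ran from -0.43 to 0.34 over the 10.

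Neutrophil markers were higher together with the GTPases after LPS and lower with CPD-4645. The summed level of 6 neutrophil markers was 1.23 to 5.19 CPM in sham-vehicle, 61.6 to 270.0 CPM in LPS-vehicle and 7.30 to 27.0 CPM in LPS-CPD-4645 mice. All 6 neutrophil markers rose after LPS, all 6 were lower with CPD-4645, and none was at 0 in any group, although 5 of the 6 were below the filter level in at least 1 sham-vehicle mouse, *Camp* and *Retnlg* in every one. The 6 monocyte and macrophage markers summed to 3.74 to 5.22, 7.18 to 11.7 and 3.01 to 7.67 CPM, and 3 of the 4 tested rose after LPS, among them *Cd163* and *Ly6c2*, which were below the filter level in 4 and 1 of the 4 sham-vehicle mice, and 1 fell with CPD-4645. T and NK cell markers, the usual sources of interferon-gamma, summed to at most 0.724, 2.68 and 1.58 CPM in the 3 groups. *Ncr1* and *Nkg7* were at 0 in sham-vehicle mice and *Cd3e* and *Cd8a* in LPS-CPD-4645 mice, and 1 of the 8 markers, *Gzma*, had enough counts to be tested. *Gzma* had 1 count in all sham-vehicle mice together, 128 in LPS-vehicle mice and 18 in LPS-CPD-4645 mice. It passed the threshold upward after LPS (edgeR adjusted p = 0.0078) and with CPD-4645 against sham-vehicle mice (edgeR adjusted p = 0.0477), and it too was tested only through LPS-treated mice. The part of these cells in the rise of the GTPases after LPS was not tested.

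Among resident cells, endothelial markers summed to 311 to 483 CPM in sham-vehicle, 393 to 818 CPM in LPS-vehicle and 479 to 625 CPM in LPS-CPD-4645 mice, with 1 of 6 higher after LPS and 0 called with CPD-4645. Without the 2-fold minimum, 4 of the 6 endothelial markers were higher after LPS (median log2 change of the 6, 0.711) and 3 were lower with CPD-4645 (median -0.422, all 6 below 0). Erythrocyte markers summed to 468 to 957, 239 to 460 and 325 to 705 CPM, and all 4 were lower after LPS at an edgeR adjusted p no higher than 0.05, by log2 changes of -0.75 to -0.98 that fell short of 2-fold. Microglial markers summed to 199 to 276, 161 to 285 and 141 to 188 CPM, with 1 of 6 lower in each of these comparisons. With the 2-fold minimum dropped, 2 of the 6 were lower after LPS (median log2 change -0.314). With CPD-4645 against LPS alone, 3 were then lower (median -0.538, 5 of 6 below 0). Astrocyte markers summed to 1272 to 1606, 1634 to 2149 and 1521 to 2049 CPM, with 1 of 6 higher after LPS. The other lists had few calls at the 2-fold minimum. After LPS 3 of 6 pericyte and smooth muscle markers and 1 of 4 choroid plexus markers were lower, 1 of 6 oligodendrocyte markers was higher and 1 lower, and no neuron, platelet or fibroblast marker passed the threshold. With CPD-4645, 1 oligodendrocyte marker was lower and 1 choroid plexus marker higher. Dropping that minimum, 4 of 6 pericyte and smooth muscle markers were lower after LPS and 1 higher (median -0.767). The same held for 4 and 1 of 6 oligodendrocyte markers (median -0.712) and 2 and 1 of 4 fibroblast markers. With CPD-4645, 2 oligodendrocyte, 1 neuron and 1 choroid plexus marker were then higher, and 1 oligodendrocyte and 1 platelet marker lower.

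Outside the lists, the genes most like the 10 were sought over all 13 mice, by the root mean square distance between a gene's standardised log2 CPM and the mean of the members'. The nearest were the death receptor *Fas* (0.204), the acute-phase protease inhibitor *Serpina3n* (0.216), *Lrig1* (0.232), *Fstl1* (0.234) and the zinc transporter *Slc39a14* (0.239). The distances of the members themselves ran from 0.117 (*Irgm1*) to 0.542 (*Tgtp2*). Each member is part of the mean it was measured against, which brings it nearer. Even so, *Gbp7* and *Tgtp2* ranked 71 and 481 among all genes tested. *Fas* had means of 1.98, 9.12 and 13.4 CPM, and *Serpina3n* of 84.2, 585 and 914 CPM, in sham-vehicle, LPS-vehicle and LPS-CPD-4645 mice. Standardising removes the size of a change, so a near gene can change much less than the members. After LPS the log2 fold changes were 0.59 for *Lrig1*, 0.62 for *Fstl1* and 1.30 for *Slc39a14*. With CPD-4645 against LPS alone they were 0.23, 0.13 and 0.02. The 13 values share the group means, so the distances mostly describe the difference between groups.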

How the data were processed

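Frozen brains were kept in RNAlater-ICE, vessels were isolated with extra sucrose washes against myelin, and stranded poly(A) libraries were made with TruSeq NeoPrep kits. Per the labels and the study's methods, the authors used bcl2fastq 2.15.0.4 and STAR 2.5.2a on GRCm38 (mm10), took gene counts from STAR on GENCODE M9 (basic), and deposited whole-number read counts, 1 column per mouse, without normalization. STAR counts uniquely placed reads and leaves out reads of overlapping genes, so copies and overlaps lose counts. Which strand column was kept is not given in the sources used here. What sham-vehicle mice received in place of LPS is also not given. The interval between LPS and CPD-4645 follows the labels and the study's methods, and another passage of the study gives a longer one.

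Of the gene identifiers, 47224 matched GENCODE M21 of the same build, which gave symbols, positions and exon lengths (the union of basic exons). Counts were tested with edgeR 4.0.16 in R 4.3.3: filterByExpr (minimum count 10, minimum total 15), TMM factors of 0.908 to 1.08, and 1 quasi-likelihood fit of all 13 mice and 3 groups (common dispersion 0.0334), with Benjamini-Hochberg adjustment over 17285 genes. Each library is from 1 mouse by its label. Standard errors were derived from the same fit. CPM use TMM-scaled totals, and log2 CPM a prior count of 2. Intervals are 95% intervals over mice. Alternatives were limma-voom (limma 3.58.1, the study's test), DESeq2 1.42.0, its size factors in edgeR, no filter, a mean count of at least 50, only the groups compared, a replicate block, no minimum fold change and each mouse left out. Added after the data were seen were the loss of the 2 shallowest libraries and summed *Tgtp1* and *Tgtp2* counts. No set test was run. The 10 genes, the family, signalling, partner and target lists and the 13 marker lists were chosen with earlier results of these data known, and support nothing by themselves. Genes named are the members, listed genes past the threshold, ligands, receptors and STAT or IRF factors, and the 5 genes nearest to the members. *Aim2*, *Casp1*, *Irgq*, *Jak1*, *Tyk2*, *B2m*, *Ido1*, *Ifit2* and single markers were named after their values were seen. A gene of the signalling list is not reported here. Shared sequence was counted over 75-base windows of M21 transcripts. Python 3.11.15 with pandas 2.3.3 and matplotlib 3.10.9 was used for summaries and plots.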

Additional observations from a re-analysis of the deposited data

Results flagged for a closer look

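Of the 30 groups of values (10 genes in 3 groups), 2 held a mouse far from the rest of its group, and chance marks about 1 in 20 groups by this measure. Both concerned sham-vehicle mouse 4. *Ifi47* was at 0.741 CPM in that mouse, below a nearest value of 1.77 CPM, a gap of 0.858 of the range of the group. *Tgtp2* was at 0.346 CPM in the same mouse, above a nearest value of 0.0856 CPM, a gap of 0.978 of the range. Leaving this mouse out kept both genes past the threshold after LPS.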

How the results depend on the processing

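After LPS all 10 GTPases passed the threshold under each alternative except limma-voom, where *Tgtp2* gave 2.47 with an adjusted p of 0.072, and a mean count of at least 50, which left *Tgtp2* untested. Against sham-vehicle mice, the LPS-CPD-4645 calls held wherever the gene was tested. In LPS-CPD-4645 against LPS-vehicle mice, *Ifi47* passed under every alternative, at 1.12 to 1.82. The number of members called there was 2 with no minimum fold change, 2 with *Tgtp1* and *Tgtp2* summed and 1 to 4 with each mouse left out. With each mouse left out, the fitted change of *Gbp5* there ran from -0.032 to 0.318 (-0.021 without LPS-vehicle mouse 4, -0.032 without LPS-CPD-4645 mouse 2) and that of *Gbp7* from -0.327 to 0.048 (0.048 without LPS-CPD-4645 mouse 4), and neither was called. Over all genes, calls with no minimum fold change numbered 3446 after LPS, 5271 for LPS-CPD-4645 against LPS-vehicle and 6713 against sham-vehicle mice, because fewer criteria are applied. With a mean count of at least 50 the second count was 632 rather than 1019, of 13860 genes tested. Leaving out each mouse gave 909 to 1007, 854 to 1082 and 1740 to 1956 calls. Size factors of DESeq2 moved the median of all genes by at most 0.0096.

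The replicate numbers shared between groups do not mark a stated litter, batch or day. Over 12 pairs of mice with the same number, the correlation of deviations from the group means ran from -0.035 to 0.114, with 1 over 0.1, so the numbers do not pair the samples. With a replicate block the calls were 972, 939 and 1882, and 10, 1 and 10 of the members. LPS-vehicle mouse 5 has a number of its own and drops out of that comparison in effect. Counting error limits *Tgtp2* and the family genes at a few counts per library.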

Other observations

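Some relatives of the GTPases were left out of the test for low counts. *Gbp8* had 5 counts in all sham-vehicle mice together, 46 after LPS alone and 30 with CPD-4645. *Gbp10* had 2, 19 and 25 counts, and every LPS-CPD-4645 mouse held at least 3. *Gm5431*, an immunity-related GTPase, had 0 counts in sham-vehicle mice, 43 in LPS-vehicle mice and 14 in LPS-CPD-4645 mice, up to 22 of them in a single mouse. The very large GTPase *Gvin1* had 0 counts in all 13 mice, while its relative *Gm4070* had 0, 15 and 20 counts in the 3 groups, with 14 of the 15 in 1 LPS-vehicle mouse. *Irgc1*, a relative expressed in testis, had 9, 11 and 1 counts. None of these was tested.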
